A study of Mus musculus with 12 samples.

Results

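Knockdown of Adar was compared directly with knockdown of Adarb1 in cultured mouse cortical neurons, with no control library entering the contrast. The comparison holds 4 of the 10 biological samples of the series, 2 labelled shAdar1 and 2 labelled shAdar2, and the same short hairpin RNA (shRNA) format in each. Editing was compared at the 1619 sites, of 46689 listed in any library, that were covered by at least 10 reads in each of the 4 samples, and RNA levels were compared over the 23955 genes of the tables. Samples were grouped as labelled, and the sites compared were set by their coverage.

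Both groups were primary cortical neurons of C57BL/6J mice, taken from E16.5 embryos, given a lentivirus 1 day after plating and collected on day 7 of culture. They shared the virus backbone, the medium and the depletion of ribosomal RNA, and differed in the hairpin: shAdar1 against Adar and shAdar2 against Adarb1. The labels give 1 hairpin name for each enzyme, so an effect of the hairpin and an effect of its target cannot be told apart. Replicate 1 of shAdar2 was sequenced as 3 technical libraries from RNA of the same neurons, which were summed. The p-values below rest on the spread between samples, over all 10 for genes and over these 4 for sites; the submitters call the replicates biological, but their source is not given further.

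ADAR enzymes bind double-stranded RNA and turn adenosine into inosine, which sequencing reads as G, so that the editing level of a site is the share of G among its A and G reads. Adar encodes ADAR1, which is found in most tissues, edits long duplexes formed by inverted repeats and has a form whose transcription is induced by interferon. Adarb1 encodes ADAR2, which is abundant in brain and is best known for recoding sites in messages of ion channels and receptors. Loss of ADAR1 editing is known to let cytoplasmic sensors such as MDA5, encoded by Ifih1, respond to the cell's own RNA. Adarb2 encodes a brain protein of the same family for which no deaminase activity is known, and Zfr encodes a zinc finger protein that binds double-stranded RNA.

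The gene tables summed to 22785911 and 27005610 expected counts in shAdar1 and to 82653829 and 15818943 in shAdar2. Reads at editing sites were 535077 and 600316 in shAdar1, 630293 in shAdar2 replicate 1 and 110255 in shAdar2 replicate 2. Replicate 2 of shAdar2 thus set which sites could be compared. Technical libraries 1-1, 1-2 and 1-3 had 225729, 293215 and 111349 reads at sites, from 29051919, 26775239 and 26826671 expected counts. Every shAdar2 library thus had fewer reads at sites than any library of the other groups (498000 to 676955). The groups differed in this besides the hairpin, and its cause and its part in the calls were not tested. The technical libraries of shAdar2 replicate 1 were not alike: 0.626% of 11182 genes differed by more than 2-fold between libraries 1-1 and 1-3, but 2.13% and 1.95% between library 1-2 and these. The 2 biological replicates of shAdar1 differed at 1.95% of the same genes. Library 1-2 also had less of the interferon-stimulated list (112 CPM, expected counts scaled to a common library size, against 292 in each of the other two) and more of the immediate early list (2645 against 919 and 1002 CPM).

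The knocked-down messages were set against the labels first. Adar stood at 55.0 and 51.5 CPM in shAdar1 and at 207 and 188 CPM in shAdar2. Adarb1 stood at 118 and 94.9 CPM in shAdar1 and at 48.4 and 52.0 CPM in shAdar2. For both enzymes the groups did not overlap, and each message was low where its own hairpin was used. Adarb1 was as low in shZfr (49.2 and 45.5 CPM), so its level does not tell shAdar2 from shZfr. Adar was lower in shAdar1 by a log2 fold change of −1.89 ± 0.13 (SE, edgeR adjusted p = 3.13e-05) and Adarb1 was higher there by 1.09 ± 0.12 (adjusted p = 0.000223).

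Per transcript length, the order of the enzymes differed between the groups. In shAdar1, Adar was at 24.3 and 23.2 TPM (transcript counts scaled for length and depth), under the 46.6 and 38.2 TPM of Adarb1. In shAdar2, Adar was at 95.7 to 104 TPM over the 4 libraries and Adarb1 at 20.7 to 23.8 TPM. Adarb1 thus exceeded Adar in both shAdar1 samples and Adar exceeded Adarb1 in every shAdar2 library. Neither message was absent in either group.

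The messages of Zfr and of Adarb2 differed too. Zfr was at 323 and 290 CPM in shAdar1 and at 179 and 197 CPM in shAdar2 (log2 0.71 ± 0.11, adjusted p = 0.00138). The shZfr samples, whose hairpin targets Zfr, had 173 and 172 CPM, and the controls 268 to 496 CPM, so the shAdar2 level lay nearest to that of the Zfr knockdown. Adarb2 was at 41.5 and 64.6 CPM in shAdar1 against 117 and 69.2 CPM in shAdar2 (−0.82 ± 0.26, adjusted p = 0.0318). The Adarb2 call rested on 1 sample: the technical libraries of shAdar2 replicate 1 read 155, 54.5 and 146 CPM, and without that replicate the value was −0.37 (adjusted p = 0.226). The call was also lost without shAdar1 replicate 1 (−0.55, adjusted p = 0.191).

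**Figure D1:**
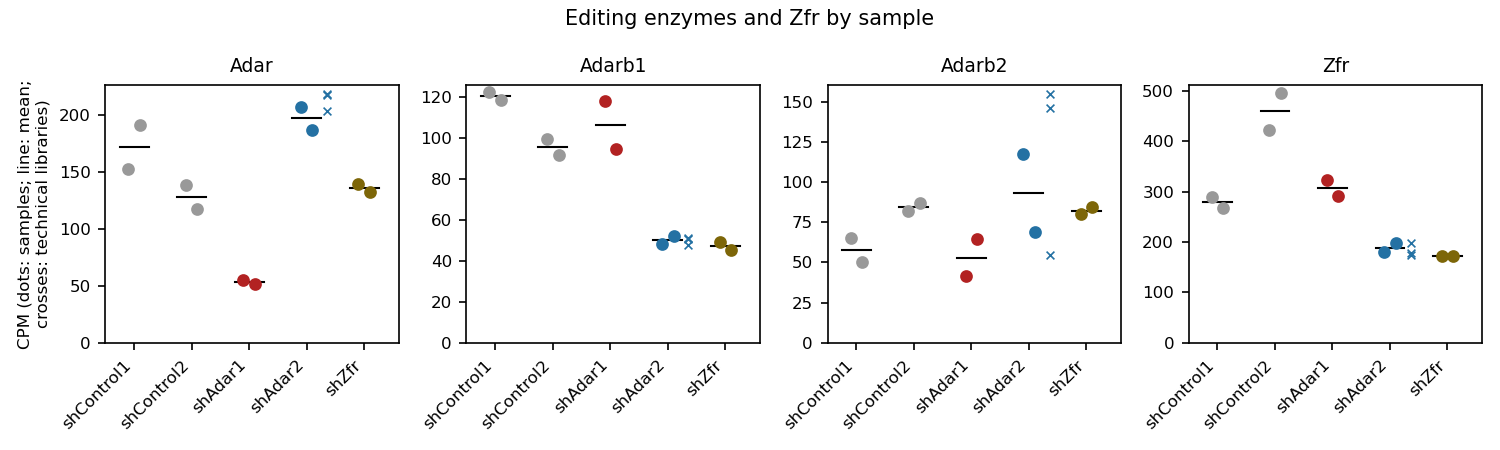
CPM of Adar, Adarb1, Adarb2 and Zfr (y axes, from 0) in each sample of the 5 groups (x axes), with dots for biological samples, lines for group means and crosses for the technical libraries of shAdar2 replicate 1. Adar is lowest in shAdar1 (55.0 and 51.5 CPM), and Adarb1 is at 48.4 and 52.0 CPM in shAdar2, near its level in shZfr.

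Of the 1619 comparable sites, 920 had no edited read in any of the 4 samples and 434 had 1 to 4, which left 265 sites for the test. Of these, 96 differed between the knockdowns (36.2%): 62 were less edited in shAdar1 (23.4%) and 34 were less edited in shAdar2 (12.8%). Below, the 62 are said to follow ADAR1 and the 34 to follow ADAR2, by the knockdown in which they were lower. The samples of the groups did not overlap at 66.0% of the tested sites. The mean level over all 1619 sites was 1.93% ± 0.21 (SD, n = 2) in shAdar1 and 2.52% ± 0.14 (SD, n = 2) in shAdar2. That difference of −0.59 points had an exact two-sided permutation p of 0.333, the smallest that 2 samples against 2 can give. Site counts depended on single samples: without shAdar2 replicate 1, which held most of that group's reads, 30 and 6 sites were called. The counts were 30 and 17 when shAdar1 replicate 1 was dropped, and 30 and 22 when its replicate 2 was.

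Differences at called sites of both kinds were large. Among the 62, the median difference was −20.7 points, and 49 of them were edited at least 10 times less in shAdar1 than in shAdar2. Among the 34, the median difference was 22.9 points, and 18 were edited at least 10 times less in shAdar2 than in shAdar1. Over all 265 the median was −0.41 points. At 18 of the 62 no edited read was seen in either shAdar1 sample, and at 7 of the 34 none was seen in either shAdar2 sample; the sites had been called on these same levels, so the sizes describe the calls.

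**Figure D2:**
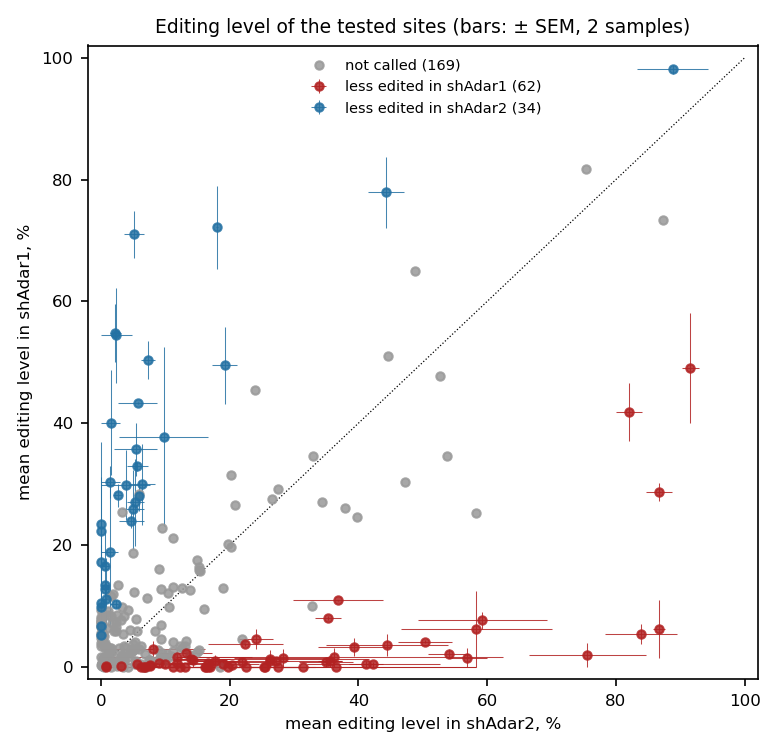
Mean editing level in shAdar1 (y axis, %) against that in shAdar2 (x axis, %) for the 265 tested sites, with bars of ± SEM over 2 samples on the called sites and the line of equal levels dotted. Most of the 62 sites less edited in shAdar1 lie near the x axis, with 4 above 10% in shAdar1, and most of the 34 less edited in shAdar2 lie near the y axis, with 4 above 10% in shAdar2; 169 were not called.

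Positions below are those of the deposited tables, whose build is mm9 per the submitters' processing notes; no annotation of that build was used here, so the sites are given without genes. Among the sites that followed ADAR2, 2 on chromosome X lie 212 bases apart. At position 71471989 the level was 74.9% and 67.2% in shAdar1 (179 and 204 reads) and 3.66% and 6.67% in shAdar2 (82 and 15 reads). At position 71472201 it was 59.6% and 50.0% against 1.36% and 3.13%. Both were edited in at least 50.0% of the reads in shAdar1 and in at most 6.67% in shAdar2, with log2 odds ratios of 5.71 ± 0.89 (adjusted p = 2.09e-08) and 6.00 ± 0.90 (adjusted p = 6.41e-09).

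Other sites of this kind showed the same split. On chromosome 2, position 120562688 was edited at 62.2% and 46.7% in shAdar1 and at 4.84% and 0% in shAdar2. On chromosome 10, position 48992582 stood at 53.5% and 47.2% against 6.31% and 8.33%. Chromosome 17, position 45799898 had 43.6% and 43.2% against 2.72% and 8.70%. The groups stood far apart at each, although the levels of shAdar2 replicate 2 rest on 12 to 23 reads. Without shAdar2 replicate 1 the last pair lost their calls (adjusted p = 0.179 and 0.114). Chromosome 11, position 36378011 was at 31.4% and 48.8% in shAdar1 and at 3.03% and 0% in shAdar2, and lost its call without shAdar1 replicate 2 (0.0564) or shAdar2 replicate 1 (0.064). By contrast, chromosome 2, position 120562688 and the 2 sites on chromosome X kept their calls in each of the 4 fits with a sample left out.

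A nearly fully edited site also followed ADAR2, although the change in level was small; it was picked out after its values were seen. Chromosome 3, position 80510834 was edited at 98.8% and 97.4% in shAdar1 (425 and 496 reads) and at 83.3% and 94.3% in shAdar2 (378 and 53 reads), a log2 odds ratio of 2.94 (adjusted p = 0.000401). Within 264 bases of it, 3 consecutive positions were called the same way: 80510570, 80510571 and 80510572. The middle one went from 34.1% and 19.9% in shAdar1 to 4.05% and 6.67% in shAdar2. Between them, position 80510774 was not called, at 30.9% and 23.2% against 40.9% and 27.8%.

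Among the sites that followed ADAR1, chromosome 11, position 75114086 had the largest difference. It was edited at 1.47% and 10.9% in shAdar1 (68 and 119 reads) and at 87.7% and 85.7% in shAdar2 (65 and 14 reads), a log2 odds ratio of −6.47 ± 0.88 (adjusted p = 1.16e-10). Chromosome 5, position 125936975 came next, with 7.06% and 3.74% against 78.3% and 89.5% (−6.25 ± 0.83, adjusted p = 7.67e-11). Both sites were edited in most reads of shAdar2 and in few reads of shAdar1. Both kept their calls in each of the 4 fits with a sample left out.

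The other large ones spread over several chromosomes. Chromosome 11, position 116442451 was at 4.00% and 0% in shAdar1 and at 66.5% and 84.6% in shAdar2. Chromosome 11, position 98627406 was at 2.86% and 1.49% against 50.9% and 57.1%, and chromosome 9, position 70399002 at 3.03% and 0% against 53.9% and 60.0%. Chromosome 2, position 132135616 was at 6.29% and 9.09% against 49.2% and 69.2%. In these, too, no sample of one group reached the range of the other; chromosome 9, position 70399002 lost its call without shAdar1 replicate 1 (adjusted p = 0.0647). Chromosome 11, position 69845577 (12.5% and 0% against 46.7% and 70.0%) rested on 10 to 30 reads a sample and lost its call without shAdar1 replicate 2 (adjusted p = 0.178).

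Not every site that followed ADAR1 lost its editing. Chromosome 2, position 4016835 kept 30.2% and 27.3% in shAdar1 against 88.6% and 84.6% in shAdar2, and lost its call without shAdar2 replicate 1 (adjusted p = 0.066). Of the 62 sites, 4 had a mean above 10% in shAdar1, and of the 34, 4 had a mean above 10% in shAdar2. In the other knockdown, 50 of the 62 and 31 of the 34 had a mean above 10%. Over all 265 tested sites, 76 were above 10% in shAdar1 and 100 in shAdar2. The sites had been called for a lower level in the knockdown they followed, so these counts describe the calls.

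Sites that followed different enzymes occurred next to each other. The 265 sites formed 108 clusters when sites no more than 10 kb apart were joined, and 22 clusters held at least 2 called sites. In 12 of the 22 all called sites followed ADAR1, in 5 all followed ADAR2, and in 5 both kinds were present. In all 5 mixed clusters the nearest opposite calls lay within 50 bases. They were 5 bases apart on chromosome 8, 7 on chromosome 11, 13 on chromosome 12, 19 on chromosome 16 and 50 on chromosome 2. Tested sites were close together in general, as 87.2% of the 265 had a listed neighbour within 100 bases. The tested sites of the chromosome 8 and chromosome 2 clusters spanned only 5 and 50 bases. These distances thus partly describe which sites could be tested.

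The cluster on chromosome 11 held 19 tested sites in 481 bases, of which 2 followed ADAR1 and 5 followed ADAR2. Position 75114079 was edited at 78.9% and 65.3% in shAdar1 and at 17.9% and 18.2% in shAdar2 (log2 odds ratio 3.49 ± 0.81, adjusted p = 0.000215). Only 7 bases on, position 75114086 had the reverse pattern given above, 1.47% and 10.9% against 87.7% and 85.7%. Position 75114080 lies 1 base from the first and was not called, at 74.1% and 55.8% against 57.6% and 40.0%. Within 8 positions, 1 site followed each enzyme and 1 was not called.

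Further along, position 75114095 followed ADAR1 at a lower level, with 6.25% and 2.86% in shAdar1 and 26.8% and 21.4% in shAdar2. Positions 75114120 and 75114125 followed ADAR2: the first went from 35.6% and 24.1% to 0% and 7.69%, and the second from 37.0% and 10.0% to no edited read among 48, which allows a level of up to 6.25%. Positions 75114502 (32.4% and 19.4% against 3.23% and 6.67%) and 75114521 (13.6% and 13.2% against 1.28% and 0%) also followed ADAR2. Between these, position 75114517 stayed high in both knockdowns, at 81.4% and 65.3% against 88.9% and 85.7%. Without shAdar2 replicate 1, position 75114079 (adjusted p = 0.0993) and the 5 weaker sites lost their calls, and position 75114086 did not. Position 75114521 lost its call in each of the 4 fits with a sample left out (adjusted p from 0.0671 to 0.319). Positions 75114125 and 75114502 also lost theirs when shAdar1 replicate 1 was dropped (0.124 and 0.141), as did 75114095 when its replicate 2 was (0.128).

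On chromosome 8 the pair was the closest. Position 127417774 was edited at 13.5% and 31.3% in shAdar1 and had no edited read among 49 in shAdar2, a level of at most 6.12%. Position 127417779, 5 bases on, was edited at 4.35% and 3.85% in shAdar1 and at 46.2% and 54.5% in shAdar2. The 2 sites exchanged places between the knockdowns. The first lost its call without shAdar1 replicate 2 (adjusted p = 0.108) or shAdar2 replicate 1 (0.319), and the second kept its call in each of the 4 fits with a sample left out.

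On chromosome 12, position 25745135 had no edited read among 140 in shAdar1 (at most 2.14%) and 19.0% and 7.14% in shAdar2. The 3 called sites 13 to 26 bases from it went the other way. Position 25745158 was at 83.8% and 72.0% in shAdar1 and at 41.5% and 47.1% in shAdar2, and position 25745161 at 27.7% and 33.0% against 2.90% and 0%. Position 25745148 was at 30.6% and 25.6% against 5.97% and 5.88%, and at none of these 4 sites did the groups overlap. Each of the 4 lost its call without shAdar2 replicate 1, with adjusted p from 0.0726 to 0.37. Position 25745148 lost it in each of the other 3 fits with a sample left out as well (0.0545 to 0.107), and position 25745158 without shAdar1 replicate 1 (0.138).

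The mixed clusters on chromosomes 2 and 16 were weaker. On chromosome 2, position 157383846 was at 4.00% and 3.37% in shAdar1 and at 28.2% and 16.7% in shAdar2, and position 157383896 at 17.9% and 4.35% against 1.61% and 0%. On chromosome 16, position 91656334 was at 31.2% and 6.56% against 2.73% and 0%. Position 91656315 there was at 4.30% and 1.49% in shAdar1 but at 16.2% and 0% in shAdar2, so its groups overlapped. Its direction turned without shAdar2 replicate 1 (2.90 points), and all 4 calls of these 2 clusters were lost in at least 1 fit with a sample left out.

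**Figure D3:**
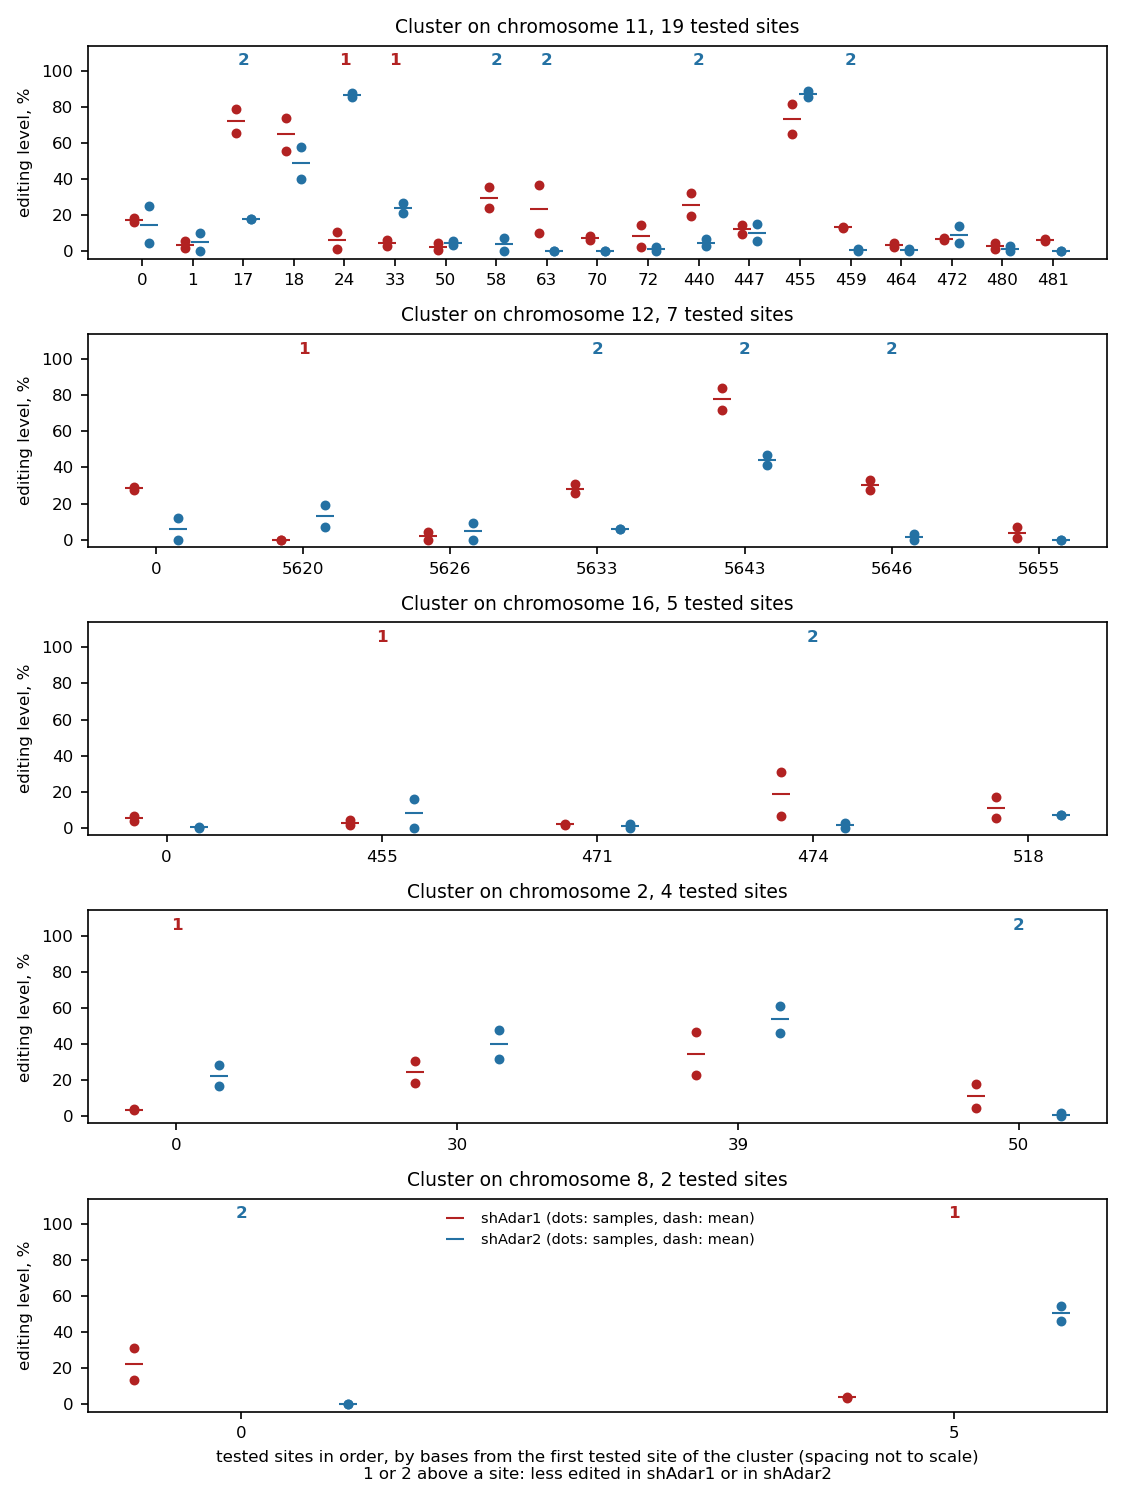
Editing level (y axes, %) of each tested site in the 5 mixed clusters, in order along the chromosome and labelled by bases from the first tested site (x axes, spacing not to scale), with dots for samples and dashes for means. A 1 or 2 above a site marks a call of less editing in shAdar1 or in shAdar2, and in each cluster both marks occur within 50 bases.

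Sites of the same kind also ran together, as in these clusters picked out after their values were seen. On chromosome X, 4 of 11 tested sites in 911 bases followed ADAR1, among them position 147419161, at 0.98% and 0% in shAdar1 and 38.5% and 43.8% in shAdar2, and position 147420072, at 0.49% and 1.38% against 25.5% and 29.0%. On chromosome 5, positions 135884725 and 135884731, 6 bases apart, were at 0% and 0.86% against 32.0% and 52.6%, and at 0% and 1.82% against 33.7% and 37.5%. On chromosome 10, position 86300002 kept 46.7% and 37.1% in shAdar1 against 84.1% and 80.0%, whereas position 86300005 kept 5.41% and 1.80% against 35.0% and 53.9%. The levels left in shAdar1 thus ranged from 0% to over 40% among neighbours of this kind; differences between neighbours were not tested.

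At 169 sites no difference was called, which does not show that their levels were equal. At 2 of these the level was at least 50% in each of the 4 samples. Chromosome 10, position 48962267 was at 81.1% and 82.4% in shAdar1 and at 78.0% and 72.7% in shAdar2, with an odds ratio between 0.389 and 4.7 (95% interval). For chromosome 11, position 75114517 the interval was 0.116 to 1.14. The median site had 15 reads in shAdar2 replicate 2, and both intervals leave room for differences of more than 2-fold in odds.

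Control libraries played no part in the calls, and the called sites can be set against them; the study's design paired shControl1 with shAdar1 and shAdar2, and shControl2 with shZfr. Over the 62 sites that followed ADAR1, the mean level was 26.8% and 27.1% in shControl1, 19.6% and 18.4% in shControl2, 3.62% and 3.26% in shAdar1, and 27.6% and 30.8% in shAdar2. Both shAdar1 samples lay below all 4 controls at 55 of the 62, against 37.7% of all tested sites. The 62 had been called on these same shAdar1 and shAdar2 levels and are part of all tested sites. Their position against the controls thus describes the calls and is no separate support for them. Both shAdar2 samples lay above all 4 controls at 14 of the 62 and at 0 of the 34, against 8.68% of all tested sites. Adar itself was at 207 and 188 CPM in shAdar2 and at 118 to 192 CPM in the controls; its part in these levels was not tested.

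Over the 34 sites that followed ADAR2, the mean level was 41.7% and 40.9% in shControl1, 31.6% and 31.3% in shControl2, 35.5% and 30.4% in shAdar1, and 6.95% and 8.18% in shAdar2. Both shAdar2 samples lay below all 4 controls at 33 of the 34, against 25.7% of all tested sites, and both shAdar1 samples did so at 7. Here too the sites had been called on these levels and are part of all tested sites, so the counts describe the calls. The shZfr samples, which neither chose nor tested these sites, lay below all 4 controls at 33 of the 34, against 41.1% of all tested sites, with mean levels of 11.0% and 11.1%. At the 62 sites that followed ADAR1 the same was true at 11, with mean levels of 18.6% and 17.0%. Adarb1 was at 22.5 and 20.8 TPM in shZfr, in the range of shAdar2. Zfr was also low in shAdar2, and the separate parts of Adarb1 and Zfr in these sites were not tested.

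RNA levels differed widely between the knockdowns. Of 14785 genes tested, 3106 were higher in shAdar1 (21.0%) and 2519 were lower (17.0%), 38.0% in all, and the median log2 fold change was −0.01. The lower side held the larger changes: 476 of its genes differed by at least 4-fold and 125 by at least 16-fold, against 190 and 15 on the higher side. The groups did not overlap at 64.7% of all tested genes, so a lack of overlap alone says little. Without shAdar1 replicate 1 or 2, the lower count went to 1359 or 1486, and a fit on the 4 samples alone called 1482 higher and 963 lower.

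Genes of the interferon response were far lower in shAdar1, that is, higher in shAdar2. Of 43 tested interferon-stimulated effectors, 39 were lower in shAdar1 and none was higher, with a median log2 fold change of −4.79 (−4.55 with the 4 genes that had no count in shAdar1 set at their bounds). Their summed level was 61.0 and 73.7 CPM in shAdar1 and 229 and 741 CPM in shAdar2. The 4 control samples had 60.1 to 97.7 CPM and the shZfr samples 68.7 and 59.9 CPM, so the shAdar2 samples alone stood high. Within shAdar2 the spread was large, since replicate 2 had more than 3 times the sum of replicate 1, and technical library 1-2 the least.

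Oasl2, an interferon-induced relative of the oligoadenylate synthetases, was at 0.27 and 0.52 CPM in shAdar1 and at 26.9 and 107 CPM in shAdar2 (−7.35 ± 0.75, adjusted p = 0.000153). Cxcl10, a chemokine that attracts T cells, was at 0.41 and 0.44 CPM against 12.8 and 28.7 CPM (−5.58 ± 0.44, adjusted p = 5.05e-05). Usp18, which removes ISG15 from proteins and dampens interferon signalling, was at 0.14 and 0.11 CPM against 4.45 and 17.0 CPM. Each was near the limit of detection in shAdar1 and present in both shAdar2 samples. Gbp2, a guanylate-binding protein, and Lgals3bp, a secreted glycoprotein, were also lower in shAdar1 than in shAdar2, with log2 fold changes of −5.04 and −4.73.

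Several genes on this side rested on next to no counts in shAdar1, and their fitted fold changes are not given. Irf7, the transcription factor that amplifies type I interferon, had 1 count in the 2 shAdar1 samples and 3.09 and 12.2 CPM in shAdar2. Isg15, the ubiquitin-like modifier, had 2 counts, against 2.46 and 14.2 CPM. Oas1a and Gbp4 had no count in shAdar1, and were at least 35.7-fold and 40.0-fold lower there against a floor of 3 counts over the group. Trim30a and Ifi44 had 4 counts each, and the unnamed gene I830012O16Rik had 1.

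Among 17 tested sensors of double-stranded RNA and their adaptors, 9 were lower in shAdar1 and 3 were higher, with a median of −1.36. Over all tested genes 17.0% were lower and 21.0% higher, so the higher count is near that share. Ifih1, which encodes MDA5, was at 0.41 and 0.44 CPM in shAdar1 against 6.96 and 20.6 CPM in shAdar2 (−4.98 ± 0.54, adjusted p = 0.000206). Ddx58, which encodes RIG-I, was at 1.87 and 2.14 CPM against 13.0 and 40.7 CPM (−3.73 ± 0.48, adjusted p = 0.000462). Among those higher in shAdar1 were Prkra (log2 0.87), the activator of the kinase PKR, and the helicase gene Dhx9 (log2 0.69). Without shAdar1 replicate 1 the count of lower sensors was 4.

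Of 20 genes of interferon reception and signalling, 9 were lower in shAdar1 and 4 higher, with a median of −0.89. The higher count is near the 21.0% of all tested genes, of which 17.0% were lower. Irf1, an interferon-induced transcription factor, was at 1.28 and 1.25 CPM in shAdar1 and at 8.48 and 9.27 CPM in shAdar2 (log2 −2.81, adjusted p = 0.000166). The receptor chain Ifnar1 differed the other way by a small amount (116 and 114 CPM against 77.5 and 78.8 CPM, log2 0.56), as did the phosphatase gene Ptpn11 (0.84). Irf1 and this receptor chain thus differed in direction.

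The interferon-stimulated response element, through which these factors act, was sought in the 250 bases before the start of each gene, as GAAANNGAAA or its reverse complement TTTCNNTTTC. It occurred in 3.04% of all 27025 promoters of that length, and in 15 of the 28 called interferon-stimulated effectors that had a promoter sequence (53.6%). It was present in 3 of 14 called genes of antigen presentation, 1 of 9 called sensors and 1 of 12 called signalling genes. A few of the named genes that held it, with sequences of RefSeq on build GRCm38.p6, are shown because they are among the genes that separate the knockdowns most. The promoter of Isg15 held 3 matches, and those of Gbp2, Trim30a and Cxcl10 held 1 each. Another match of Isg15 starts within the capitals shown and runs into the lower case. Capitals mark the first match, lower case 10 bases on either side, read along the strand of the gene:
Isg15 (chr4:156200877-156200906, minus strand): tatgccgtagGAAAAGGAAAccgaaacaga
Gbp2 (chr3:142620594-142620623, plus strand): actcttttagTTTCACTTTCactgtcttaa
Trim30a (chr7:104465210-104465239, minus strand): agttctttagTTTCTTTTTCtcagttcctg
Cxcl10 (chr5:92349083-92349112, minus strand): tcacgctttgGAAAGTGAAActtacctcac

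The matches in capitals end 68, 49, 26 and 203 bases before the start of Isg15, Gbp2, Trim30a and Cxcl10. A match is a description of letters and no sign of binding. No promoter of the 13 called cholesterol genes with a sequence held the element. At its low share over all promoters, so few would often hold none, so no conclusion is drawn from this.

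Antigen presentation by MHC class I went with the interferon genes. Of 20 tested members, 15 were lower in shAdar1 and 2 were higher, with a median of −2.66. The class I heavy chain gene H2-D1 was at 15.7 and 10.9 CPM in shAdar1 and at 48.8 and 70.0 CPM in shAdar2 (−2.16 ± 0.23, adjusted p = 0.0002). Tap1, a subunit of the peptide transporter, was at 2.87 and 3.65 CPM against 21.0 and 27.6 CPM (−2.89 ± 0.23, adjusted p = 5.17e-05). Tapbp, which encodes tapasin, and Nlrc5, the transactivator of class I genes, were lower in shAdar1 than in shAdar2, with log2 fold changes of −1.93 and −3.51.

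Of 16 inflammatory genes known as NF-kappaB targets or subunits, 14 were lower in shAdar1 and none was higher, with a median of −2.51. Icam1, an adhesion molecule, was at 0.59 and 0.48 CPM in shAdar1 and at 7.05 and 15.7 CPM in shAdar2 (−4.39 ± 0.55, adjusted p = 0.000437). The chemokine genes Cxcl1 and Ccl20 had 3 counts each in shAdar1, against 6.96 and 33.2 CPM and 2.90 and 9.38 CPM in shAdar2. Tnfaip2 was lower in shAdar1 than in shAdar2, with a log2 fold change of −4.15. In each of these the shAdar2 replicate 2 sample was the higher one.

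Markers of microglia, which express many of these genes, moved the same way at very low levels. The 10 markers summed to 0.273 and 0.591 CPM in shAdar1, 8.08 and 4.31 CPM in shAdar2 and 0.868 to 2.11 CPM in the controls. Tmem119 had no count in either knockdown, P2ry12 was at 0.02 and 0.87 CPM in shAdar2 and C1qc at 2.44 and 1.64 CPM. Of the 5 markers tested, 3 were lower in shAdar1. That count depended on single samples, and some fits with a sample left out tested more markers. The median log2 fold change of the tested markers ran from −4.99 (without shAdar1 replicate 2) to −3.33 (without shAdar2 replicate 1) in these fits. Fewer cells of a type and less RNA per cell cannot be told apart in such bulk samples, and the part of microglia in the interferon and antigen genes was not tested.

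Most called p53 targets were lower in shAdar1, whereas called cell death genes were split. Of 23 tested p53 targets, 11 were lower in shAdar1 and 2 were higher, with a median of −0.72. Cdkn1a, the inhibitor of cell cycle kinases, was at 34.4 and 28.0 CPM in shAdar1 and at 127 and 113 CPM in shAdar2 (−1.94 ± 0.16, adjusted p = 5.58e-05). Sesn2 (−2.06) and Phlda3 (−2.02) were also lower in shAdar1 than in shAdar2. In the controls Cdkn1a differed between the hairpins, with 81.7 and 102 CPM in shControl1 and 30.7 and 24.5 CPM in shControl2. Sesn2 did so too (37.7 and 48.8 against 14.9 and 12.8 CPM), as did Phlda3 (25.8 and 28.4 against 6.06 and 7.17 CPM). For each of these genes the shAdar1 samples lay nearer to shControl2 than to shControl1. The source of the difference between the controls was not tested.

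Of 20 cell death genes, 11 were lower in shAdar1 and 6 were higher, with a median of −0.58. Over all tested genes 17.0% were lower and 21.0% higher. Bbc3, a BH3-only inducer of apoptosis, was at 8.97 and 9.55 CPM in shAdar1 against 42.5 and 30.0 CPM in shAdar2. Tnfrsf10b, a death receptor gene, was at 2.41 and 3.32 CPM against 15.2 and 37.8 CPM. Both also differed between the control hairpins. Bbc3 was at 24.7 and 29.1 CPM in shControl1 and at 8.30 and 7.76 CPM in shControl2, and Tnfrsf10b at 8.22 and 8.82 against 2.62 and 2.60 CPM. Casp9, which encodes an initiator caspase, was higher in shAdar1, by 1.19 on the log2 scale. Members of the list thus differed in direction. Of 27 tested genes of the integrated stress and unfolded protein response, 4 were higher in shAdar1, 6 lower and 17 not called. Both called counts are near the shares of all tested genes.

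**Figure D4:**
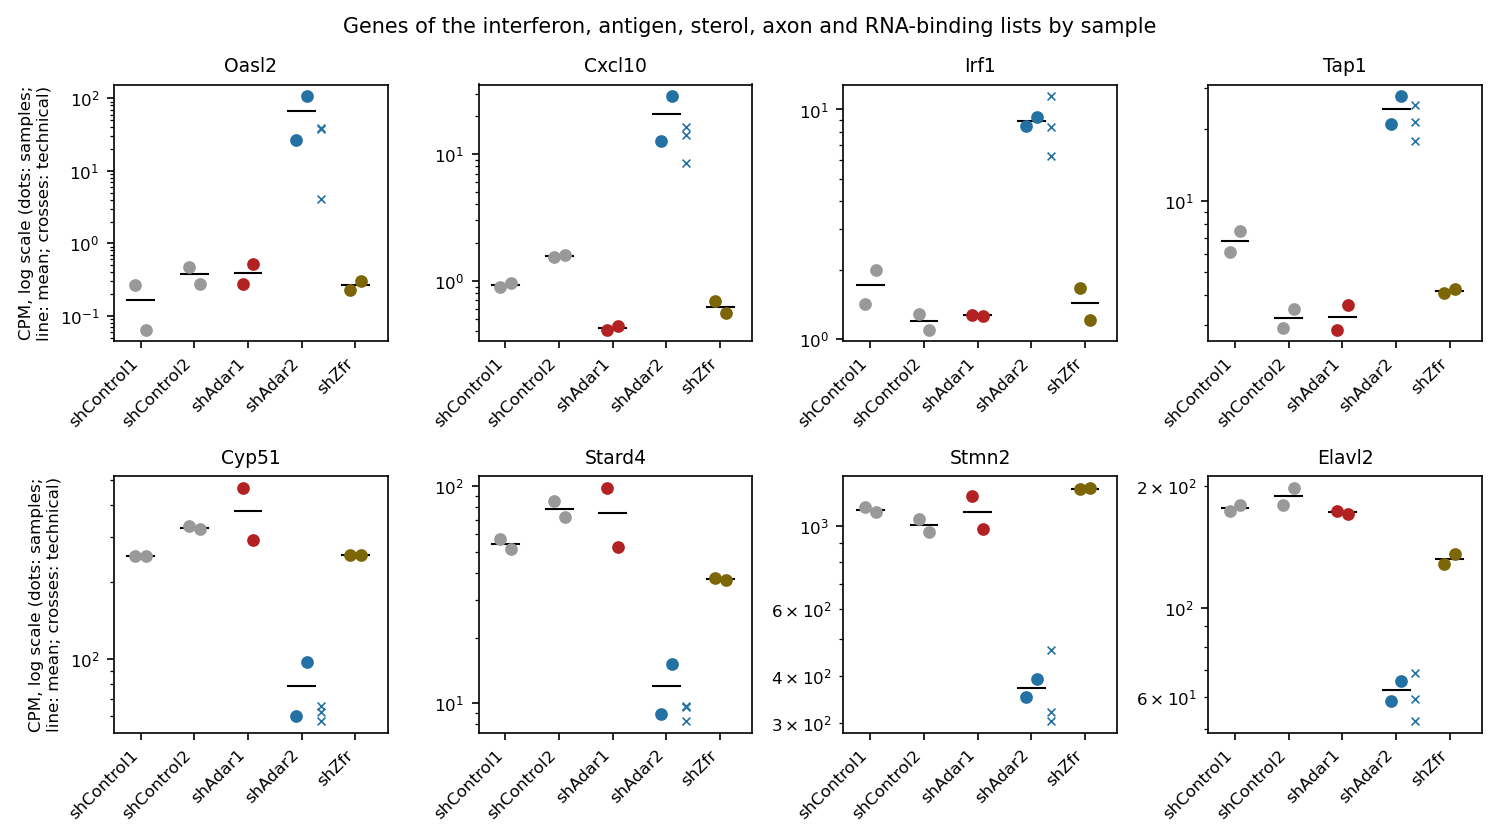
CPM on log axes of 8 genes (panels) by sample and group (x axes), with dots for biological samples, lines for means and crosses for the technical libraries of shAdar2 replicate 1. Oasl2, Cxcl10, Irf1 and Tap1 are highest, and Cyp51, Stard4, Stmn2 and Elavl2 lowest, in shAdar2.

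Genes of cholesterol synthesis and uptake went the opposite way. Of 23 tested, 20 were higher in shAdar1 and none was lower, with a median of 1.82. Their summed level was 4335 and 2802 CPM in shAdar1, 841 and 1217 CPM in shAdar2 and 2174 to 3269 CPM in the controls. Cyp51, the lanosterol demethylase, was at 466 and 290 CPM against 60.0 and 97.5 CPM (2.27 ± 0.25, adjusted p = 0.000209). Stard4, a sterol carrier, was at 98.5 and 52.3 CPM against 8.87 and 15.2 CPM (2.69 ± 0.31, adjusted p = 0.000298), and Hsd17b7 differed by 1.80. The letters TCACNCCAC of the sterol regulatory element, or their reverse complement, were in 1.04% of all promoters. They were in none of the promoters of the 13 of 20 called genes that had a sequence. At so low a share, 13 promoters would mostly hold none, so no conclusion is drawn from this.

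RNA-binding proteins and splicing factors were also higher in shAdar1. Of 35 tested, 25 were higher and none was lower, with a median of 0.59. Elavl2, a neuronal protein that binds AU-rich RNA, was at 174 and 171 CPM in shAdar1 and at 58.9 and 65.9 CPM in shAdar2 (1.47 ± 0.10, adjusted p = 2.5e-05). Hnrnpa1 was at 663 and 665 CPM against 188 and 271 CPM (1.54 ± 0.16), and Tra2b and Elavl4 differed by 1.25 and 1.07. Of 28 tested editing enzymes and their published regulators, 12 were higher in shAdar1 and 6 were lower, with a median of 0.21. Over all tested genes 21.0% were higher and 17.0% lower, so the lower count is near that share. Among these, Ilf2 (1.01) and Elavl1 (0.86) were higher.

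Messages of growing neurons stood out on the same side. Of 27 genes of axon growth and guidance, 13 were higher in shAdar1 and none was lower, with a median of 0.46. Stmn2, a microtubule regulator of growth cones, was at 1194 and 981 CPM in shAdar1 against 350 and 391 CPM in shAdar2 (1.56 ± 0.13, adjusted p = 5.21e-05). Gap43 (1.50), the adhesion gene Ncam1 (1.55) and the semaphorin receptor gene Plxna4 (1.71) were also higher in shAdar1 than in shAdar2. Of 12 neuron markers, 8 were higher in shAdar1 and none was lower, with a median of 0.77. They summed to 8970 and 7675 CPM against 3746 and 4125 CPM, with 7123 to 10290 CPM in the controls.

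Synaptic genes were called in both directions, mostly at shares near those of all tested genes (21.0% higher and 17.0% lower). Of 21 genes of transmitter release, 4 were higher and 3 lower in shAdar1, and of 22 postsynaptic genes 4 were higher and 7 lower. The postsynaptic lower count was 4 and 2 without shAdar1 replicates 1 and 2, and 3 without shAdar2 replicate 1. Syt4 was at 769 and 685 CPM in shAdar1 against 234 and 274 CPM (1.52 ± 0.14), whereas the vesicle gene Syp was at 297 and 279 against 573 and 392 CPM (−0.74 ± 0.16). Cacng2, which encodes stargazin, was higher (1.50) and Dlg4, which encodes PSD-95, lower (−0.91). The medians of both lists were −0.19 and −0.16.

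Receptor genes and known recoding targets were also called in both directions. Of 17 ionotropic glutamate receptor genes, 5 were higher and 7 lower in shAdar1 (4 lower without shAdar1 replicate 2), among them Grin2d (−1.34), Grik5 (−0.76), Grik1 (1.05) and Grin2b (0.59). Of 27 messages known to be recoded by editing, 5 were higher and 2 lower, with a median of −0.05, which is 7 of 27 against 38.0% of all genes. The higher count was 3 without shAdar1 replicate 1 and 8 without shAdar2 replicate 2. The recoded message of Azin1, which encodes an inhibitor of antizyme, was at 448 and 395 CPM against 159 and 212 CPM (1.18 ± 0.20, adjusted p = 0.00168). Its level also differed between the control hairpins, with 241 and 157 CPM in shControl1 and 649 and 669 CPM in shControl2. Of 19 inhibitory receptor genes, 4 were higher (7 without shAdar1 replicate 2) and 3 lower, shares near the 21.0% and 17.0% of all tested genes. Glra2, a glycine receptor subunit, was at 52.8 and 49.6 against 13.4 and 12.1 CPM (2.00 ± 0.13, adjusted p = 2.5e-05).

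Immediate early genes were lower in shAdar1 by a call that leaned on 1 sample. Of 20 tested, 9 were lower and 1 higher, with a median of −1.29. Arc, an activity-induced synaptic gene, was at 2.60 and 2.25 CPM in shAdar1, at 67.4 CPM in shAdar2 replicate 1 and at 11.3 CPM in replicate 2. The technical libraries of replicate 1 read 29.4, 146 and 40.1 CPM. The lower count went to 4 without technical library 1-2, to 2 without shAdar2 replicate 1, and to 2 and 3 without shAdar1 replicates 1 and 2; without shAdar2 replicate 2 it was 14. The list summed to 531 to 1540 CPM in the controls.

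Markers of some cell types differed between the cultures. Of 8 tested oligodendrocyte lineage markers, 1 was lower in shAdar1, none was higher and 7 were not called. They summed to 155 and 428 CPM in shAdar1 and to 104 and 356 CPM in shAdar2. Of 14 markers of proliferating progenitors, 10 were higher in shAdar1 and none was lower, with a median of 1.78. They summed to 314 and 712 CPM in shAdar1 and to 110 and 205 CPM in shAdar2, with 234 to 641 CPM in the controls. Aurkb, a mitotic kinase, was at 3.01 and 9.96 CPM against 0.42 and 0.71 CPM (3.66 ± 0.56, adjusted p = 0.00111). Against 21.0% of all tested genes, 5 of 15 astrocyte and radial glia markers were higher. That count was 2 without shAdar1 replicate 2, 3 without shAdar2 replicate 1 and 11 without shAdar2 replicate 2, and the sums were 2230 and 3736 against 1047 and 2044 CPM.

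Markers of neuronal subtypes were called in both directions, where 21.0% of all tested genes were higher in shAdar1 and 17.0% lower. Of 16 markers of excitatory cortical neurons, 9 were higher in shAdar1 (5 without shAdar1 replicate 1) and 3 lower: Neurod6 was at 356 and 263 against 60.5 and 55.1 CPM (2.42 ± 0.19, adjusted p = 5.21e-05), and Slc17a7, the vesicular glutamate transporter of mature cortical neurons, at 37.8 and 34.6 against 116 and 97.5 CPM (−1.56 ± 0.17). Of 15 interneuron markers, 4 were higher, among them Lhx6 (2.44) and Npy (3.10), and 4 were lower, among them Gad2 (−1.19). Both interneuron counts are near the shares of all tested genes. Gad2 differed between the technical libraries of shAdar2 replicate 1, at 464, 195 and 414 CPM. Of 10 markers of vessels and fibroblasts, 3 were lower in shAdar1, none was higher and 7 were not called. Their median log2 fold change was −0.555, in a range of −4.20 to 0.954. The called markers were Col1a1 (−2.92), Acta2 (−4.20) and Col1a2 (−2.63). Col1a2 lost its call without technical library 1-2 (adjusted p = 0.122) and without either shAdar1 sample. The part of these cell types in the other lists was not tested.

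**Figure D5:**
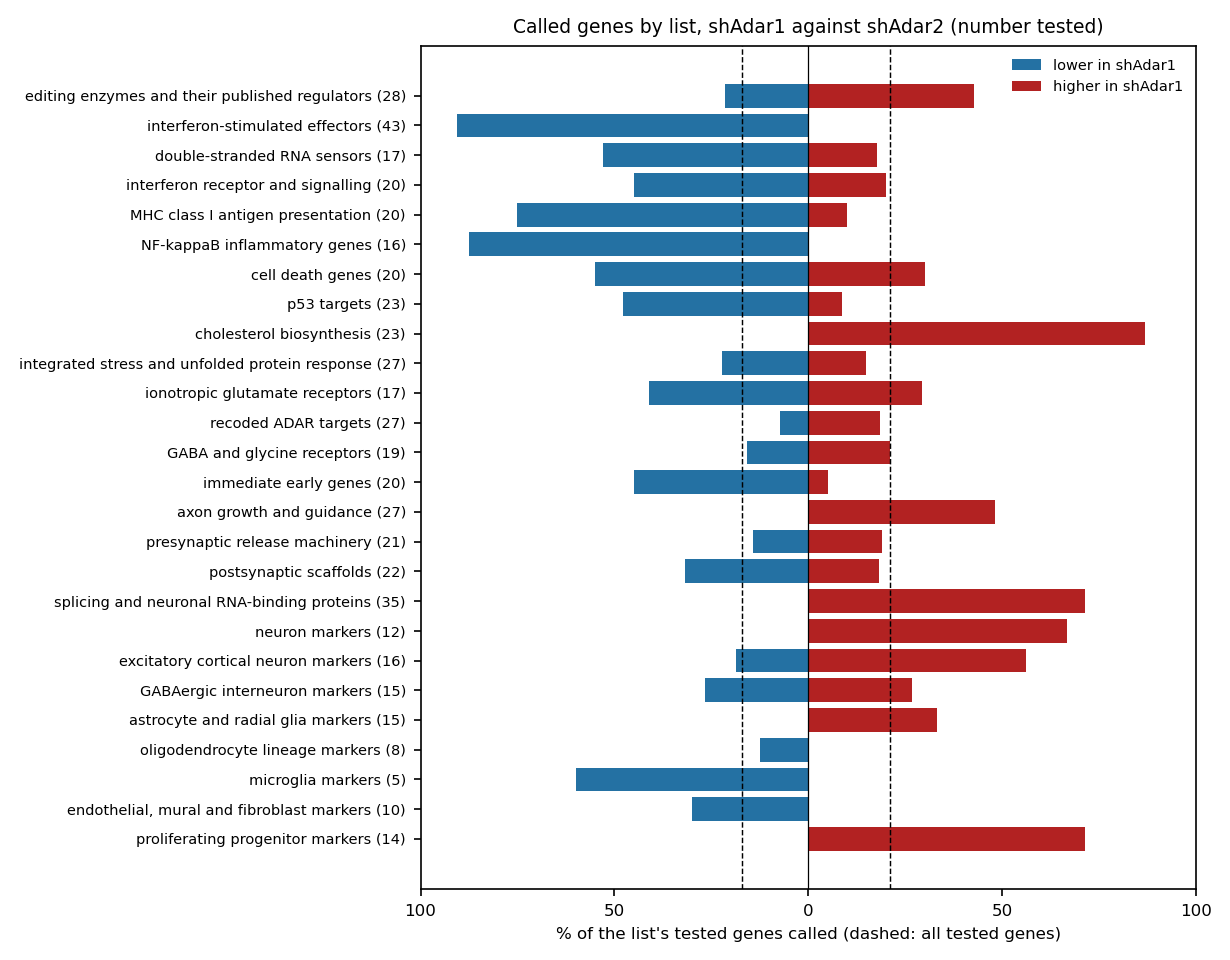
Share of each list's tested genes (x axis, %) called higher (right) or lower (left) in shAdar1, with the number tested beside each list and dashed lines at the shares over all tested genes (21.0% and 17.0%). Interferon, antigen and NF-kappaB lists extend to the left, and the cholesterol, RNA-binding, neuron and progenitor lists to the right.

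Among the genes with the largest changes toward shAdar1 were several of cell division: Depdc1a (4.08 ± 0.54), Esco2 (3.96), Casc5 (3.62) and Pbk (3.44), each 2 to 4 times as high in shAdar1 replicate 2 as in replicate 1. Scd1, the desaturase that makes oleic acid, was at 284 and 196 CPM in shAdar1 and at 6.14 and 33.5 CPM in shAdar2 (3.68 ± 0.65, adjusted p = 0.00238). In the controls Scd1 was at 76.3 and 37.8 CPM in shControl1 and at 455 and 463 CPM in shControl2, and both shAdar2 samples lay below all 4. Nxph2, Gm13139 and Klhl14 were also higher in shAdar1 than in shAdar2, by 3.51, 3.43 and 3.31 on the log2 scale.

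The extremes on each side are uncertain. Amd1 was at 126 and 76.2 CPM in shAdar1 and had no count in shAdar2, but also none in 2 of the 4 control samples. Gm10052 had no count in shAdar1 and 194 and 178 CPM in shAdar2, and no count in 3 of the 4 controls. Estimated counts can be split between near-identical copies of a gene; whether they were here was not tested, and neither value is used further. Both calls were lost in at least 1 fit with a sample left out.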

How the data were processed

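Per the submitters' processing notes, the build was mm9 and the tools included RSEM 1.2.30, SAMtools 1.4, STAR 2.5.4b and also Trim Galore 0.4.5, with no roles given. The deposited gene tables hold the authors' expected counts and TPM; the deposited site tables hold counts of A and G reads and the editing level as a fraction, which equals G over A plus G.

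Expected counts were summed over the 3 technical libraries, rounded and tested with edgeR 4.0.16 (TMM, filterByExpr, quasi-likelihood F test, R 4.3.3) over all 10 samples, which share 1 estimate of spread. Sites needed at least 10 reads in each of the 4 samples and at least 5 edited and 5 unedited reads; their reads were tested with edgeR with a coverage term per sample, an edited term and its interaction with shAdar1. Benjamini-Hochberg adjusted p under 0.05 was called. TPM was used to compare enzymes per length only. Both tests were tested on simulated data. DESeq2 1.42.0 and the other settings tried are given in the closing section. Intervals of odds ratios rest on the SE of the site test, which includes the spread estimated between samples. Upper limits (3 reads over the reads seen) cover counting error only.

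The gene lists (26) and the comparison were chosen with earlier results of these data known. Named genes were Adar, Adarb1, Adarb2 and Zfr; the 10 largest changes in each direction among genes that reached 5 CPM in either group, without overlapping samples; and up to 4 called members of each list with the lowest p and at least 1 CPM in the higher group. Named sites were the 8 largest differences in each direction, at most 2 per cluster, and all called sites of mixed clusters; others are said to be picked out later.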

Additional observations from a re-analysis of the deposited data

How the results depend on the processing

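Directions held in nearly all alternatives, which for genes says little when a sample is left out. Of the called genes, 3103 of 3106 higher and 2517 of 2519 lower in shAdar1 had groups without overlap. Leaving out a sample could thus hardly turn their sign. Of the 5625 called genes none changed sign under any setting, and of the 96 called sites 3 did so, all without shAdar2 replicate 1; of the named sites this was chromosome 16, position 91656315 (2.90 points in place of −5.18, and −13.3 without shAdar2 replicate 2). Fitting only the 4 samples moved the higher and lower gene counts to 1482 and 963. Leaving out a sample gave 2295 to 3866 genes higher and 1359 to 3218 lower, 30 to 61 sites less edited in shAdar1, 6 to 31 less edited in shAdar2, and a difference in mean level of −0.74 to −0.44 points. A minimum of 20 reads in each sample left 89 sites, of which 17 and 13 were called, and moved the difference in mean level to −0.25 points; pooling reads moved it to −2.08. Asking for 1 edited and 1 unedited read gave 19 sites less edited in shAdar2. Technical library 1-3 alone gave 34 and 17 sites, and 1-2 alone 20 less edited in shAdar2; fewer sites were tested in these. The other settings planned (DESeq2, its size factors, no filter, library 1-1 alone, Fisher's exact test on pooled reads) moved no count over all genes or sites by more than 3 to 2.

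The next settings were chosen after seeing the data. Without technical library 1-2, 5312 of the called genes and 82 of the called sites were still called. Testing 1579 sites without asking for reads in shAdar2 replicate 2, which leaves that group 1 sample assumed to vary like shAdar1, edgeR called 0 in either direction (lowest adjusted p 0.094), with 607 at an unadjusted p under 0.05; the cause was not tested, and no other tool was run there.

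With a replicate block, 3133 genes were higher and 2521 lower, and 48 and 28 sites were called. The numbers need not pair the samples: replicate 1 minus replicate 2 correlated over genes with r = 0.28 between the groups. Depth also limited the sites: shAdar2 replicate 2 had 110255 reads at sites, and of the 1619 sites 920 had no edited read and 434 had 1 to 4.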

Other observations

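The genes with the lowest p, chosen after their values were seen, were not in any list. Capza1, a subunit of the actin capping protein, was at 113 and 119 CPM in shAdar1 and at 22.7 and 23.2 CPM in shAdar2, with 104 to 133 CPM in the controls. Eif2s1, the alpha subunit of the initiation factor eIF2, was at 83.0 and 79.5 CPM against 16.3 and 18.8 CPM, and Tfrc, the transferrin receptor, at 413 and 364 CPM against 82.6 and 93.5 CPM. For Nras, a small GTPase, the levels were 199 and 183 CPM against 36.7 and 44.6 CPM. For each of these 4 genes, both shAdar2 samples lay below every sample of the other groups.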
